A study of Mus musculus with 6 samples.

Results

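The genes described here encode the enzymes that cut Notch and other membrane proteins at the cell surface: 6 gamma-secretase genes (Psenen, Psen2, Ncstn, Aph1a, Aph1b and Aph1c) and 2 genes of the Adam sheddases (Adam10 and Adam17). They were found in the count table by their Ensembl identifiers, and are 8 of 46983 rows and 8 of the 13961 genes that had enough reads to be tested. The group was put together around 1 measured value. Psenen had already been called higher in cells deficient in BAF155 and BAF170 in an earlier analysis of the same libraries, and the other 7 genes were added by name, as its complex partners and as the enzymes that cut before it. The comparison of control and deficient cells therefore chose Psenen, and the values of the 8 genes in that comparison are given as a description, without a test.

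Gamma-secretase is a membrane protease assembled from a presenilin, which carries the active site, nicastrin (Ncstn), an Aph1 scaffold protein and PEN-2, the small product of Psenen, which is needed for the presenilin to become active. It cuts its substrates inside the membrane after another protease, such as an Adam, has removed their outer part. For Notch, a receptor with known roles in neural crest migration and differentiation, ligand binding is followed by cleavage by Adam10 and then by gamma-secretase, which frees the intracellular domain to enter the nucleus. Adam17 sheds TNF and many other surface proteins. The list holds 1 presenilin gene, Psen2, and statements on the partners of Psenen cover the listed genes only.

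RNAseq was performed on neural crest cells (NCCs) from mouse embryos at E11.25, with 3 samples from controls and 3 from embryos with both BAF genes deleted in the crest (called deficient). Controls carried Wnt1 Cre/+ with BAF155 flox/+, BAF170 flox/+ and Rosa26 mTmG/+, so that they too lost 1 copy of each BAF gene in Cre-positive cells. Deficient embryos carried Wnt1 Cre/+ and Rosa26 mTmG/+ with both alleles floxed, BAF155 flox/flox and BAF170 flox/flox. Cells were sorted for GFP, which the Rosa26 allele turns on after Cre has acted; Wnt1-Cre is active in the dorsal neural tube as well as in the crest. Per the methods, cells came from 3 control and 3 deficient embryos, and p-values measure only the spread between these samples, 1 for each embryo if none were pooled or split. BAF155 and BAF170 are core subunits of the BAF chromatin remodelling complex.

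The libraries held between 8191219 and 19808620 counts, with fewer in each control than in any deficient library, and the 10 most abundant genes took between 16.2% and 34.99% of them. Smarcc1, which encodes BAF155, was lower in deficient libraries (log2 fold change -0.71, SE 0.16, edgeR adjusted p = 0.0676), whereas Smarcc2, which encodes BAF170, was at -0.11 (SE 0.058, edgeR adjusted p = 0.251); the counts cover whole genes and not the floxed part alone. Markers of macrophages were abundant in these sorted cells. The 12 macrophage markers summed to between 11889 and 13738 CPM (counts scaled to a common library size) in control and between 13845 and 15144 CPM in deficient libraries, and all 12 had a log2 fold change above 0, from 0.15 to 0.25. The 12 mesenchymal crest markers summed to 122 ± 36.7 CPM in controls and 52.0 ± 15.2 CPM in deficient libraries, and the 8 crest and glial markers to 57.4 ± 22.2 and 28.7 ± 5.74 CPM (mean ± SD, n = 3). The 7 neutrophil markers summed to 19.99 ± 2.57 and 25.9 ± 1.83 CPM, with Camp, Ltf, Elane and Mpo under 1 CPM in every library. Sums in control and deficient libraries were 52.6 ± 22.9 and 24.1 ± 5.20 CPM for sensory and autonomic markers (mean ± SD, n = 3). Neural tube markers summed to 106 ± 24.1 and 65.6 ± 18.1 CPM and erythroid markers to 38.9 ± 25.1 and 20.1 ± 3.02 CPM. The groups overlapped for both of these sets, and control 2 held 67.7 CPM of erythroid markers. Endothelial markers summed to 182 ± 11.6 and 204 ± 7.30 CPM, and of these Tek, Emcn and Cldn5 stayed under 1 CPM. The part of these markers' cells in the values of the 8 genes was not tested, and in sorted bulk samples fewer cells of a type and less RNA per cell cannot be told apart.

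Psenen lies on chromosome 7 of GRCm38 (chr7:30561863-30563627, minus strand), and its coding sequence runs over 306 bases for a protein of 101 amino acids. The coding sequence is shown because another gene carries it whole. In GENCODE M21 the whole of it, with 0 differences, is also the transcript of Gm12396, a processed pseudogene (an intronless copy of a spliced mRNA) on chromosome 4 (chr4:40775259-40775564, minus strand). The first 300 bases, the same in both, are given 5′ to 3′ with no part marked.
Psenen coding sequence and Gm12396: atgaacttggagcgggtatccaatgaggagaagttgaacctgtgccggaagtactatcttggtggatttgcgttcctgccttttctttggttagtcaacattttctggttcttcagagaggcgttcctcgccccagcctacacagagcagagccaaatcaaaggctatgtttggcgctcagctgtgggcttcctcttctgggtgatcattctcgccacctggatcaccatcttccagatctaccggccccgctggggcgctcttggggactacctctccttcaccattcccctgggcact
All 207 windows of 100 bases in Gm12396 occur in transcripts of Psenen, where they make up 14.0% of the 1474 windows. A read that falls wholly in them has no base that tells the genes apart, and how such reads were assigned is not given in the sources used here. Gm12396 and the other pseudogene named below were picked out by their sequence after the values of the 8 genes were seen.

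Psenen as counted was higher in every deficient library than in every control. It measured 13.9, 9.90 and 15.8 CPM in controls 1 to 3 and 19.97, 17.2 and 24.0 CPM in deficient libraries 1 to 3. The log2 fold change was 0.61 (SE 0.18), from 74 to 505 counts a library. Psenen was 1 of 8 genes called higher, that is 0.0573% of genes tested, where a call needed an edgeR adjusted p no higher than 0.1, a log2 fold change of 0.58 or more in either direction and 2 CPM or more on average; 4.88% of genes were called lower. By fold change it stood last of the 8, just inside the threshold, beside Rpl36-ps2 at 0.62, and the nearest genes outside were Gm7019 at 0.576, Gm10073 at 0.51 and Tmub1 at 0.51. Psenen and Tmem220 were the protein-coding genes of the 8, and the annotation lists the other 6 as processed pseudogenes.

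The pseudogene Gm12396 took more counts than Psenen in all 6 libraries. It measured 30.2, 31.7 and 29.7 CPM in controls and 25.8, 33.3 and 25.0 CPM in deficient libraries, with a log2 fold change of -0.12 (SE 0.11, edgeR adjusted p = 0.513). Per exon length the distance was wider, at a mean of 99.8 RPKM (reads per kilobase of exon, scaled like CPM) for Gm12396 and 10.4 RPKM for Psenen in controls, and 91.6 and 16.0 RPKM in deficient libraries. In each group the library with the least Psenen, replicate 2 in both, had the most Gm12396.

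Summed with Gm12396, Psenen differed less between the groups. The sum was 44.1, 41.6 and 45.5 CPM in controls and 45.8, 50.5 and 48.9 CPM in deficient libraries, with a log2 fold change of 0.15 (SE 0.072) that stayed between 0.11 and 0.18 when any 1 library was left out and was not called. The groups still did not overlap, although control 3 and deficient 1 lay 45.5 against 45.8 CPM. The share of the sum counted to Psenen was 31.6%, 23.8% and 34.7% in controls and 43.6%, 34.0% and 49.0% in deficient libraries. The shares of the groups overlapped, since control 3 was above deficient 2.

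**Figure D1:**
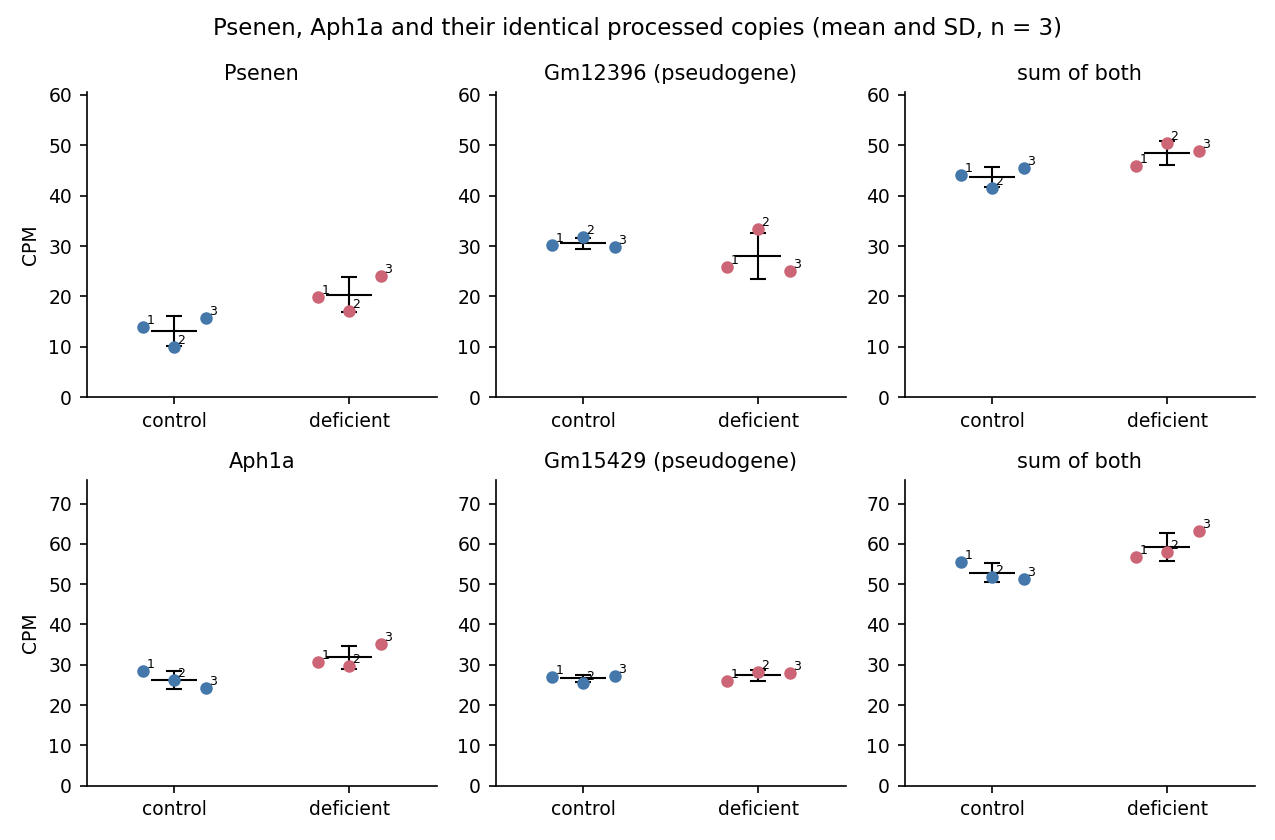
Normalized counts (CPM, vertical axes from 0) of Psenen, its identical copy Gm12396 and their sum (top), and of Aph1a, its identical copy Gm15429 and their sum (bottom), with 1 point per library marked by replicate number and the mean and SD (n = 3) in black. The means of control and deficient libraries are 13.2 and 20.4 CPM for Psenen alone and 43.7 and 48.4 CPM for the sum.

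Set against its partners, Psenen as counted stood out in the fold change and less so library by library. Its log2 fold change was 0.53 above the mean of the other 5 gamma-secretase genes (0.09). That mean includes Aph1b, which has the fewest counts; the median of the 5 was 0.23, and against the mean of the 4 partners without Aph1b (0.23) Psenen stood 0.38 higher. As a percentage of the summed CPM of those 5 genes, Psenen was 5.44%, 3.87% and 5.67% in controls and 6.79%, 5.66% and 7.78% in deficient libraries. The groups overlapped at this measure, with deficient 2 just below control 3. The difference from the partners was 0.33 without control 2, the library with the least Psenen, and 0.72 without control 3, which had the most of the controls. With counts of Psenen, Aph1a and the Aph1b and Aph1c pair each summed over their copies, the difference was -0.035. The pair then entered the mean as 1 of 4 partners, so the like value as counted is 0.38.

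Psen2, the presenilin on the list (chr1:180227004-180263438, minus strand), overlapped between the groups. It measured 86.6, 86.8 and 98.8 CPM in controls and 98.2, 100.3 and 98.8 CPM in deficient libraries, a log2 fold change of 0.13 (SE 0.066). Ncstn, the nicastrin gene whose product binds the free end of a substrate (chr1:172066013-172082795, minus strand), measured 125, 129 and 141 CPM in controls and 149, 158 and 156 CPM in deficient libraries. Its log2 fold change was 0.23 (SE 0.063), and every deficient library was above every control. No stretch of 100 bases of either gene recurs on the same strand in another gene's transcripts.

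Aph1a, the scaffold gene with the highest level of the family (chr3:95893969-95898288, plus strand), measured 28.5, 26.2 and 24.1 CPM in controls and 30.8, 29.7 and 35.1 CPM in deficient libraries. The log2 fold change was 0.28 (SE 0.097), and the groups did not overlap. Like Psenen it has an identical copy, for the 798-base transcript of the processed pseudogene Gm15429 (chr1:161726242-161727489, minus strand) equals the Aph1a coding sequence with 0 differences. Gm15429 measured 27.0, 25.6 and 27.2 CPM in controls and 25.8, 28.2 and 28.0 CPM in deficient libraries, with a log2 fold change of 0.04 (SE 0.083, edgeR adjusted p = 0.798), and its mean per exon length in controls was 33.3 RPKM against 7.62 RPKM for Aph1a. The sum of both had a log2 fold change of 0.16 (SE 0.071), and Aph1a made up 49.7 ± 2.35% of it in controls and 53.8 ± 2.20% in deficient libraries (mean ± SD, n = 3).

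Aph1b (chr9:66775202-66795490) and Aph1c (chr9:66814994-66834726), neighbours on the minus strand of chromosome 9, are the rodent pair of Aph1 genes. Their coding sequences share 95.9% of aligned bases, against 58.9% and 57.6% with Aph1a, and their transcripts share an exact stretch of up to 341 bases, so that reads could be split between them. Both are shown from the start codon over the first 90 coding bases, 5′ to 3′, with the 11 positions that differ in capitals.
Aph1b: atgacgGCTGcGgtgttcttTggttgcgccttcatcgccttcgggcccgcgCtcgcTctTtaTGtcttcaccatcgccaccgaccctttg
Aph1c: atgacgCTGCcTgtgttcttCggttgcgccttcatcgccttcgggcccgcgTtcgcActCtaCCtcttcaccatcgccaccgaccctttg
Aph1c carried most of the pair's counts. It measured 13.5, 11.6 and 12.7 CPM in controls and 14.7, 14.3 and 17.3 CPM in deficient libraries, a log2 fold change of 0.29 (SE 0.13) without overlap of the groups. Aph1b measured 2.02, 2.81 and 1.31 CPM in controls and 1.64, 1.16 and 1.47 CPM in deficient libraries. That is 16 to 31 counts a library, and its log2 fold change of -0.49 came with an SE of 0.37 and overlapping groups, so no difference was detectable at this depth. The sum of the pair had a log2 fold change of 0.20 (SE 0.12).

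Of the sheddases, Adam10, the main Notch sheddase (chr9:70678997-70780229, plus strand), measured 41.3, 42.9 and 38.2 CPM in controls and 40.5, 32.0 and 36.7 CPM in deficient libraries. The groups overlapped, and the log2 fold change was -0.16 (SE 0.094). Adam17, the TNF-converting enzyme (chr12:21323509-21373632, minus strand), measured 134, 132 and 136 CPM in controls and 143, 152 and 147 CPM in deficient libraries, a log2 fold change of 0.13 (SE 0.055) with no overlap. The ratio of Adam10 to Adam17 CPM was 0.305 ± 0.0232 in controls and 0.248 ± 0.0359 in deficient libraries (mean ± SD, n = 3). Control 3 at 0.280 and deficient 1 at 0.283 overlapped in this ratio.

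**Figure D2:**
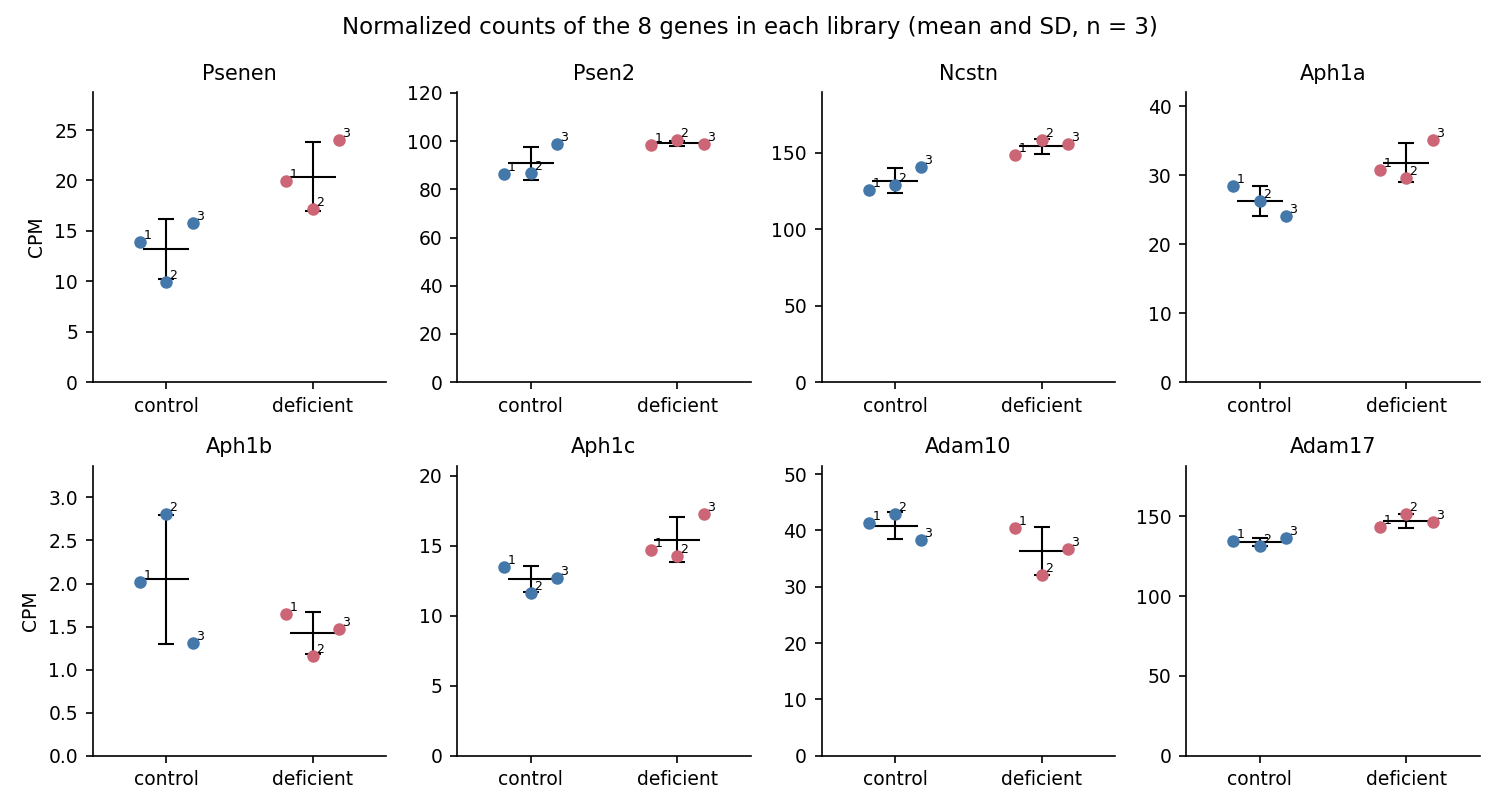
Normalized counts (CPM, each vertical axis from 0 on its own scale) of the 8 genes, with 1 point per library marked by replicate number and the mean and SD (n = 3) in black. The groups are apart for Psenen, Ncstn, Aph1a, Aph1c and Adam17 and overlap for Psen2, Aph1b and Adam10.

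Over the 8 genes, 6 had a log2 fold change above 0 and 2 below, with a median of 0.18, beside 47.7% above 0, 52.3% below 0 and a median of -0.02 over all genes tested. For 5 of the 8 every deficient library was above every control, which held for 15.0% of genes tested, with the reverse for 16.4%. An adjusted p of at most 0.1 with a higher value was met by 2 of the 8, Psenen and Ncstn, and by 4.18% of genes tested. These counts come from the comparison that chose Psenen and are not a test of the group. Beside the 0.15 to 0.25 of the 12 macrophage markers, Ncstn lay within that range at 0.23. Aph1a (0.28), Aph1c (0.29) and Psenen (0.61) lay above the range as counted. Summed over copies, Aph1a (0.16) and the Aph1b and Aph1c pair (0.20) lay within it, and Psenen (0.145) lay just below its lower end of 0.151. Psen2 and Adam17 (0.13 each), Adam10 (-0.16) and Aph1b (-0.49) lay below the range. The part of macrophages in these values was not tested. With libraries scaled to 25 embryonic markers instead, the median of all genes shifted to 0.91, Aph1b and Adam10 turned to 0.53 and 0.76, below that median, and the other 6 genes lay above it, from 1.03 to 1.49.

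**Figure D3:**
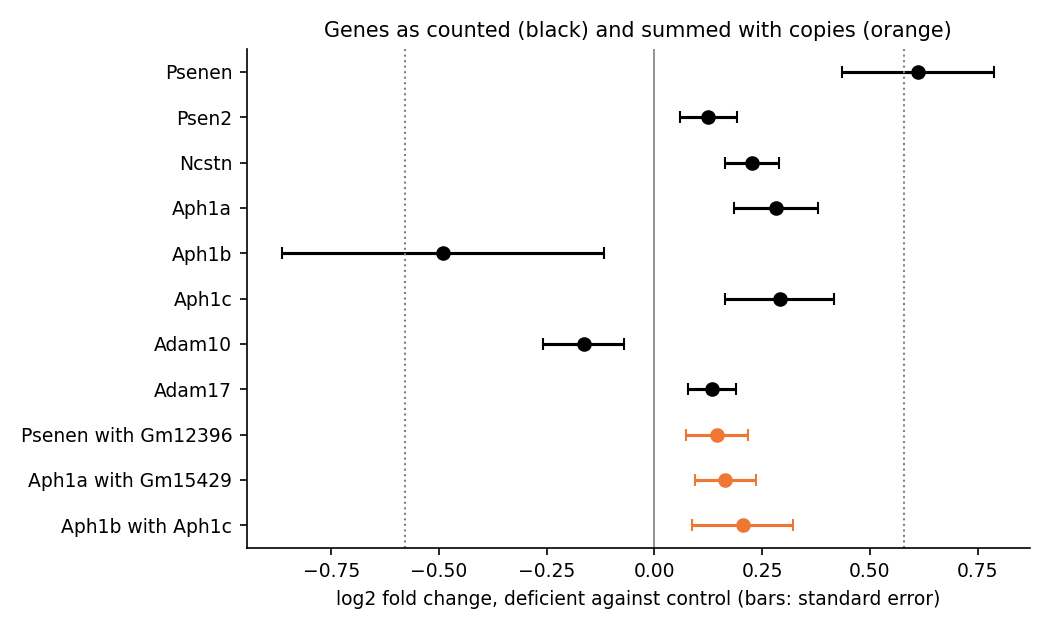
Log2 fold change of deficient against control libraries (horizontal axis, bars are standard errors) for the 8 genes as counted (black) and for sums over genes that share sequence (orange), with dotted lines at the threshold of 0.58 either way. Psenen at 0.61 is the only point past the upper line, and its sum with Gm12396 lies at 0.15.

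Per exon length and as counted, Ncstn had the highest level, at a mean of 33.1 RPKM in controls and 38.8 RPKM in deficient libraries. Psen2 followed at 20.9 and 22.9 RPKM and Adam17 at 18.7 and 20.6 RPKM. Psen2 was above Adam17 within every library, although its lowest value (19.98 RPKM, control 1) was below the highest of Adam17 (21.2 RPKM, deficient 2). Psenen came next, at 10.4 and 16.0 RPKM. Aph1a (7.62 and 9.23 RPKM) and Adam10 (8.31 and 7.41 RPKM) changed places between the groups, and in control 2 Psenen (7.76 RPKM) was below Adam10 (8.74 RPKM). Aph1c at 2.43 and 2.97 RPKM and Aph1b at 0.397 and 0.276 RPKM were the lowest. The places of Psenen and Aph1a in this order hold for the genes as counted only. Summed with their identical copies they had 43.7 and 52.9 CPM in controls, against 13.2 and 26.3 CPM alone. Aph1b and Aph1c together made up 27.1 ± 0.688% of the RPKM of the Aph1 family in controls and 25.97 ± 0.27% in deficient libraries (mean ± SD, n = 3). This share takes Aph1a as counted, without the counts of Gm15429.

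**Figure D4:**
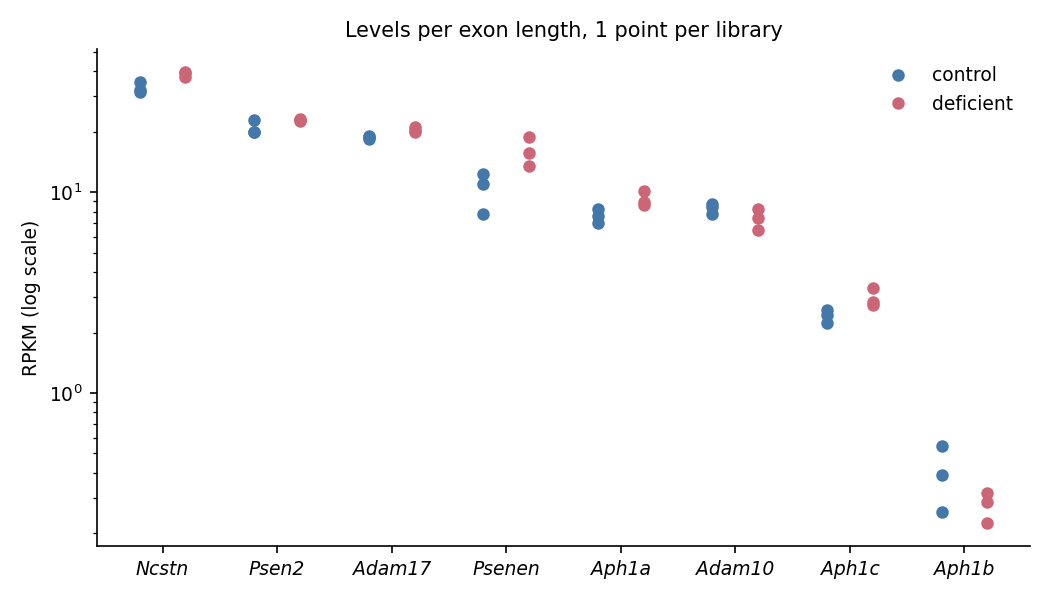
Level per exon length (RPKM, log scale) of the 8 genes as counted, ordered by their mean over all libraries, with 1 point per library. Levels run from 39.8 RPKM for Ncstn to 0.225 RPKM for Aph1b, both in deficient 2, and Psenen is the gene whose control and deficient points lie farthest apart among those above 1 RPKM.

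Psenen is a short gene, with 1275 exon bases, and gene length moved with the fold change across the table. Of 5 equal bins of genes by exon length, that of the shortest genes (56 to 2184 exon bases) had a median log2 fold change of 0.08, and 4.09% of its genes were at or above the value of Psenen. In the bin of the longest genes the median was -0.20 and 0.179% were. After correction for length the log2 fold change of Psenen was 0.55, under the threshold. The part of gene length in the value of Psenen as counted was otherwise not tested.

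Psenen lies among other genes on chromosome 7, and overlaps U2af1l4. U2af1l4, a splicing factor gene on the opposite strand whose exons share 119 bases with those of Psenen (9.33% of its exon bases), measured 14.4, 9.50 and 15.7 CPM in controls and 15.4, 16.9 and 16.2 CPM in deficient libraries. Its log2 fold change was 0.28 (SE 0.16, edgeR adjusted p = 0.288), and like Psenen it was lowest in control 2. Lin37, a subunit gene of the DREAM complex, had a log2 fold change of 0.30 (SE 0.13, edgeR adjusted p = 0.155), and Igflr1 had 0 counts in every library. The libraries kept strand, but the strand setting of the counting is not given in the sources used here. Other overlapping opposite-strand genes that were tested were Copa with Ncstn (log2 fold change of Copa 0.04), Car14 with Aph1a (-0.91, SE 0.47, edgeR adjusted p = 0.23) and Iah1 with Adam17 (0.28, SE 0.13). Gm31728 over Psen2, Gm17098 over Aph1c (28 shared exon bases) and Gm22766 over Adam17 had too few reads to be tested.

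One of the windows that RefSeq (GRCm38.p6) gives for the start of Psenen, 250 bases before and 50 after, shows how closely the pair is set. It is chr7:30563155-30563454 on the minus strand, 5′ to 3′, with the 108 bases that fall in exons of U2af1l4 in capitals.
Psenen window: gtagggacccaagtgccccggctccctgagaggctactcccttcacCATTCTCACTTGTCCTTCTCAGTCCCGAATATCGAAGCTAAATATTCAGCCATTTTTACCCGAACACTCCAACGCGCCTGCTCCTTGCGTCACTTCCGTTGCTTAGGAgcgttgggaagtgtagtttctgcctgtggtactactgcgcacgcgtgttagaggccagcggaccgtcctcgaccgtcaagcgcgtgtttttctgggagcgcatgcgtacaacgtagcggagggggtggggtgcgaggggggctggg
Across 32851 such windows, in which each motif was searched on both strands, the ETS letters CCGGAAG were found in 8.86% and in windows of 4 of the 8 genes (Psenen, Ncstn, Aph1a and Adam17). The NRF1 letters GCATGCGC were in 2.71% and in windows of Psenen and Adam10, CCAAT in 37.4% and in windows of 5 of the genes, the TEAD letters GGAATG in 14.7% and in that of Aph1c, and the E-box CACGTG in 7.15% and in windows of Psen2 and Adam10. None of these motifs contains another, and these are matches of letters and not measured binding. The 8 genes had 10 windows, with more than 1 for Psenen and Psen2. Counted by window like the percentages, the matches were 4 of 10 for ETS, 2 for NRF1, 5 for CCAAT, 1 for TEAD and 2 for the E-box. The ETS and CCAAT matches of Psenen lie in its other window (chr7:30563578-30563877) and not in the one shown.

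Genes with a pattern across the 6 libraries most like that of Psenen were Leprot (Pearson r 0.999), Clptm1 (0.998) and Arl5a (0.998), of 10950 genes compared. Their own log2 fold changes were 0.15, 0.16 and 0.11. The 6 points share libraries and depth, and r is given as a description.

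Of the genes around these enzymes, 16 of 76 passed the adjusted p, 8 in each direction, and the 8 that also passed the fold threshold were all lower in deficient cells. Of 76 pathway genes tested, 8 were called, beside the 4.88% called lower over all genes. The same 8 were those with an adjusted p no higher than 0.1 and a lower value, which 7.75% of all genes had, and the 8 with a higher value stood beside 4.18% of all genes. The median log2 fold change was 0.01. Gamma-secretase substrates held 5 of the called genes, out of 24 tested. Of these 24 substrates, 15 had a log2 fold change below 0 and 9 above, with a median of -0.27, beside 52.3% of all genes below 0. Ngfr, the low-affinity neurotrophin receptor, which also marks crest cells, fell from 5.32, 9.10 and 2.71 CPM in controls to 1.49, 1.22 and 1.38 CPM in deficient libraries (log2 fold change -2.03, SE 0.41, edgeR adjusted p = 0.0534). The others were Efnb1, an ephrin ligand (-1.07, SE 0.30), Cdh2, the N-cadherin gene (-0.98, SE 0.25), Aplp1, a neuronal membrane protein gene (-0.81, SE 0.26) and Lrp8, a reelin receptor (-0.80, SE 0.25). All 5 were below 31 CPM in every library. The summed mesenchymal crest and crest and glial markers given above were lower as well, and the part of those cells in the calls was not tested.

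Among 9 Notch receptors and ligands the called gene was Dll3, a ligand that acts inside the cell, at 7.34, 10.03 and 4.35 CPM in controls and 3.45, 3.36 and 3.51 CPM in deficient libraries (log2 fold change -1.05, SE 0.28, edgeR adjusted p = 0.0772). Notch1, the most studied receptor, was at 104 ± 8.60 and 95.6 ± 5.62 CPM (log2 fold change -0.12, SE 0.073, edgeR adjusted p = 0.306). Notch3 (-0.67, SE 0.34) and Jag2 (-0.87, SE 0.45) did not pass, with overlapping groups. The list's median was -0.12.

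Among 9 other Adam genes tested, Adam11, a member without protease activity, fell from 4.79, 7.36 and 2.71 CPM to 1.49, 1.22 and 1.33 CPM (log2 fold change -1.85, SE 0.37, edgeR adjusted p = 0.048). Adam23, another member of that kind, was at -1.37 (SE 0.48, edgeR adjusted p = 0.114). Adam9, an active sheddase, was at 186 ± 9.38 CPM in controls and 223 ± 9.42 CPM in deficient libraries (log2 fold change 0.26, edgeR adjusted p = 0.0653), under the fold threshold, and Adam8, an immune cell sheddase, was at 0.20 (SE 0.071, edgeR adjusted p = 0.112). Rhbdl3, a rhomboid protease gene, was the called gene among 8 other membrane proteases, at -2.09 (SE 0.39, edgeR adjusted p = 0.0483). Bace1, the beta-secretase gene, was at -0.36 (SE 0.16, edgeR adjusted p = 0.171), and Sppl2a, an intramembrane protease of the presenilin kind, was at 0.21 (SE 0.065, edgeR adjusted p = 0.092). Mbtps1, the site-1 protease gene, was at -0.19 (SE 0.094, edgeR adjusted p = 0.224).

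Among the sheddase substrates and regulators, 6 of 22 genes passed the adjusted p, each higher in deficient libraries by a log2 fold change under the threshold. The 10 sheddase substrates tested all had a log2 fold change above 0 (median 0.20, beside 47.7% of all genes above 0), and 3 of them had an adjusted p of at most 0.1, beside 4.18% of all genes with that and a higher value. They were Tnfrsf1b (0.21), Icam1 (0.21) and Mertk (0.21). Areg, Ereg, Tgfa and Btc, also on the substrate list, had too few reads to be tested. Of 12 sheddase regulators (median 0.13), 7 were above 0 and 5 below, and 3 passed the adjusted p, again beside 4.18%: Rhbdf2, an iRhom that carries Adam17 to the surface (0.26), its partner Frmd8 (0.22) and Furin, which removes the prodomain of sheddases (0.23). Rhbdf1, the other iRhom gene, was at -0.87 (SE 0.30, edgeR adjusted p = 0.103), and Tspan15, a tetraspanin partner of Adam10 named here after its value was seen, was the lowest of the regulators at -1.001 (SE 0.46, edgeR adjusted p = 0.189). Tnf, whose product Adam17 sheds, was at 349 ± 23.6 and 403 ± 25.5 CPM (log2 fold change 0.21, edgeR adjusted p = 0.101). The 6 genes that passed lay at 0.21 to 0.26, beside 0.15 to 0.25 for the macrophage markers, and the part of macrophages in them was not tested. The 4 gamma-secretase modulators, Gsap, Tmed10, Rer1 and Ifitm3, had log2 fold changes between 0.12 and 0.18 with edgeR adjusted p of 0.138 or more.

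**Figure D5:**
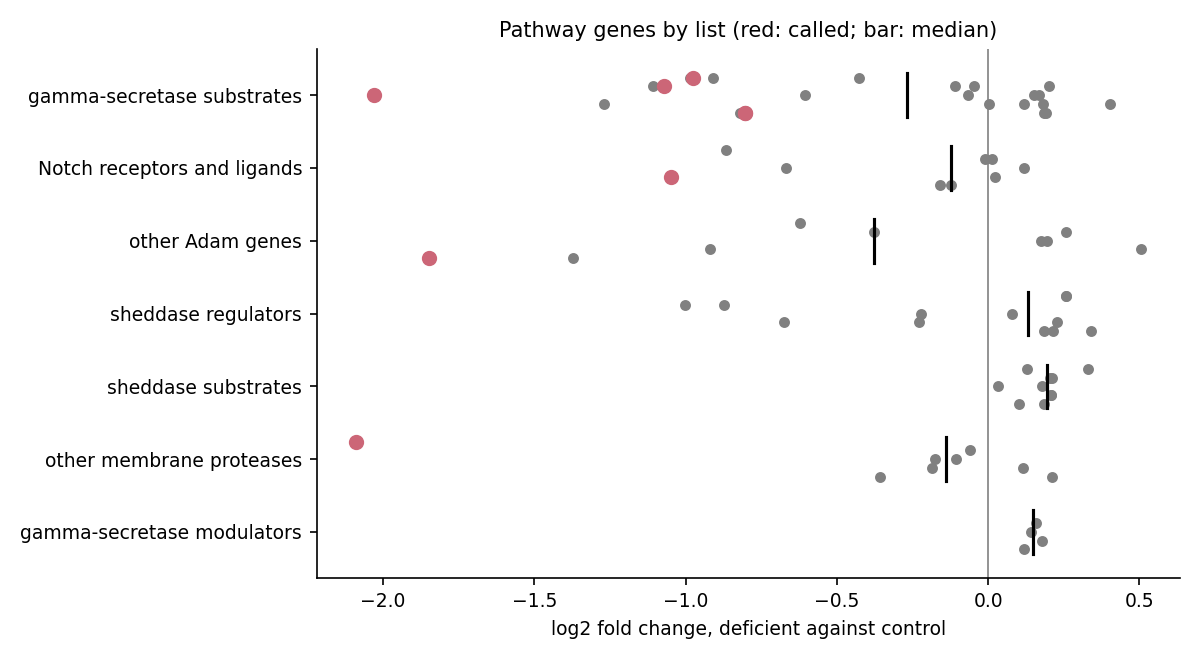
Log2 fold change of deficient against control libraries (horizontal axis) for the 76 pathway genes tested, by list, with 1 point per gene, called genes in red and the median of each list as a bar. All 8 red points are on the left, at -0.80 or lower, and the sheddase substrates and modulators all lie right of 0.

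The pathway calls depended on single libraries. Without control 3 there were 13 lower calls among the pathway genes and without deficient 2 there were 5, whereas without control 1, control 2 or deficient 3 edgeR made none, at 2547, 2361 and 2200 genes with an unadjusted p under 0.05 in the whole table. With libraries scaled to embryonic markers, where the median of all genes was 0.91, 2 pathway genes were called lower and 36 higher. The call of Psenen was lost without control 1, control 2 or deficient 3 in turn, at log2 fold changes of 0.65, 0.46 and 0.47.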

How the data were processed

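Counts per gene were deposited by the authors for 6 mouse samples, as whole numbers without normalization. Per the methods, poly(A) strand-specific libraries were trimmed, aligned to GRCm38 with STAR and counted with featureCounts of Rsubread; cutadapt 1.18 is named in the submitters' processing notes. How multi-mapping reads were handled and the annotation release are not given in the sources used here. Names came from GENCODE M21, matched without version (46488 of 46983 identifiers).

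Genes passing filterByExpr (minimum count 10, total 15) were fitted with edgeR 4.0.16 (TMM, robust quasi-likelihood, condition as the only term) in R 4.3.3 and adjusted by Benjamini-Hochberg over 13961 genes. The call thresholds follow the study. The common biological coefficient of variation was 12.8%. CPM use normalized library sizes, and RPKM divide them by exon length. Scripts were tested on simulated data. Alternatives were DESeq2 1.42.0, limma-voom (limma 3.58.1), library totals, other filters, a replicate block, a length correction, embryonic-marker scaling and leaving out each library; summing near-identical copies and leaving Aph1b out of the partner mean were added after the values were seen. The members and lists were chosen with earlier results of these data known. Genes named were the members, the called list genes and, per list, the 4 with the smallest p, beside the neighbours of Psenen and the 3 genes most like it. Exact 100-base windows of transcripts were compared with all other transcripts.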

Additional observations from a re-analysis of the deposited data

How the results depend on the processing

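Over the 13 alternatives other than embryonic-marker scaling and summed copies, the log2 fold change of Psenen ran from 0.46 to 0.77 and its difference from the partners from 0.33 to 0.72, and no member changed sign. The members called numbered 0 with library totals, with the length correction and with copies summed. The log2 fold change of Psenen was 0.67, 0.55 and 0.15 in these settings in turn. With library totals it passed the fold threshold but not the adjusted p. With copies summed the difference of Psenen from the partners was -0.035. That value is against 4 partner entries, with Aph1b and Aph1c as 1, and stands beside 0.38 for the 4 partners without Aph1b as counted. The causes of these losses were not tested, and the call of Psenen is a description, since this comparison chose the gene. Genes called higher numbered 8, and 15 with DESeq2, 33 without a filter on low counts and 21 with a replicate block; genes called lower numbered 681, and 1143 with the block. Pathway genes called lower numbered 8, and 15 with DESeq2, 15 without a filter and 16 with the block. Scaling to embryonic markers gave 23 genes lower and 6595 higher, with 6 members called, and 2 pathway genes lower and 36 higher, around a median of 0.91. Leaving out 1 library gave 0 to 1219 genes lower, 0 to 45 higher, 0 to 1 members called and 0 to 13 pathway genes lower. The replicate numbers did not pair the samples (correlations of same-numbered deviations 0.03, -0.03 and 0.29, and controls 1 and 2 correlated best with another number). With 16 to 31 counts a library, depth limits Aph1b most.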
